A study of Mus musculus with 24 samples.

Results

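A set of 10 genes is described here across 6 mouse small cell lung cancer (SCLC) cell lines: 9 secreted matrix proteins, namely fibronectin (Fn1), fibrillin-1 (Fbn1), tenascin-C (Tnc), periostin (Postn), Sparc, follistatin-like 1 (Fstl1), thrombospondins 1 and 2 (Thbs1, Thbs2) and matrix Gla protein (Mgp), and vimentin (Vim), an intermediate filament protein of mesenchymal cells. They are 10 of the 25239 genes in the expression table, and all 10 are among the 14104 that reached 1 TPM (a share of all transcripts that is corrected for gene length) in at least 3 libraries and were tested. The genes were chosen by earlier values of these libraries, chiefly their lower levels in the lines called Type D than in those called Type V. The levels by type are therefore given as a description without a test. This holds for the Control libraries and for the other conditions, which come from the same lines.

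The lines came from individual lung tumors of mice homozygous for Trp53 XTR and for the flox alleles of Rb1 and Rbl2 (Rb1 flox/flox, Rbl2 flox/flox), which also carried Rosa26 FlpO-ER. In all 6 lines adenoviral Cre, driven by the CMV promoter, had deleted Rb1 and Rbl2 and trapped Trp53 in its silent state, so the Control libraries carry these lesions too. In Restored libraries 4-hydroxytamoxifen (4-OHT) had switched FlpO on, which removes the trap and returns p53. The 3 Type D lines (4711-1, 4711-18 and 4716-11, given as replicates 1, 2 and 3 in this order) lyse from about 3 days after restoration. The 3 Type V lines (4711-11, 4716-10 and 4716-14) stay viable but arrest. Each line gave 4 libraries at 72 h: Control (vehicle), Control + CsA (cyclosporin A, a ligand of cyclophilins), Restored, and Restored + CsA. Thus 24 libraries form 8 groups of 3 lines, and p-values measure the spread between lines. Where cell line was entered as a block, they measure the spread left after each line's own level is taken out. Sampling at 72 h fell near the start of the lysis of Type D lines, from which CsA protected them in the paper. The part of dying cells in the Type D Restored values was not tested. Line names begin with 4711 or 4716 in each type, and the labels do not say what the prefix stands for.

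Trp53 itself lay at 10.5 to 15.3 TPM in the 12 libraries without restoration and at 181 to 253 TPM in the 12 with it. TPM keeps no record of read numbers, so depth is unknown; 11853 to 12651 genes per library reached 1 TPM. The labels name the cells small cell lung cancer, but the defining neuroendocrine markers were near the floor: Chga was listed at 0 in every library, and Syp did not exceed 1.27 TPM in Type D or 1.41 TPM in Type V. The keratins Krt8, Krt18 and Krt19 lay at 1677 to 5797 TPM in Type D and at 0.44 to 973 TPM in Type V. Other epithelial markers did not separate the types in this way. Cdh1 lay at 281 to 1050 TPM in Type D and at 50.3 to 572 TPM in Type V. Epcam, Cldn7 and Esrp1 did not exceed 4.57 TPM in either type, and Cldn4 did not exceed 15.9 TPM.

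Matrix glycoproteins are secreted and assembled around the cell. Fibronectin and fibrillin-1 build fibrils and microfibrils, while tenascin-C, periostin, Sparc and the thrombospondins are matricellular proteins, which bind the fibrils, integrins or growth factors and tune adhesion more than they bear load. Matrix Gla protein inhibits calcification and needs vitamin K for its carboxylation. Vimentin stays inside the cell, and its presence beside matrix genes is a common sign of a mesenchymal state.

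The promoter sequences of 7 of the 10 genes were matched in the RefSeq table (GRCm38.p6): Vim, Fbn1, Postn, Tnc, Sparc, Fstl1 and Thbs2. Fn1, Thbs1 and Mgp had no entry. Windows of 250 bases before the start were searched on both strands for the AP-1 motif TGANTCA, the TEAD motif GGAATG, the E-box CAGGTG of the ZEB and SNAI factors, and the TATA box TATAAA. Over all 32851 promoters 6.75%, 12.6%, 17.2% and 12.4% hold these motifs. The windows of the 7 genes held none of the first 3. However, several windows overlap annotated exons of the same gene. All 250 bases of the Fbn1 and Vim windows do so, as do 238 bases for Sparc and 182 for Fstl1. In a Tnc window that is not printed, 79 bases do. The letters TATAAA lay in windows of Tnc, Thbs2 and Vim and in 1 of the 2 windows of Postn. The other Postn window, at chr3:54359017-54359266, also overlaps no annotated exon, has 3 CpG dinucleotides and 40.4% GC, and is not printed. Windows that overlap no annotated exon are shown for Postn and Tnc, whose levels differed with restoration in every line of a type, and for Thbs2, which was abundant in a single line. Capitals mark the match to TATAAA, read as TTTATA for Thbs2, where it lies on the opposite strand. Matches were taken at any position in a window, and whether they act as a TATA box was not tested.

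Postn, chr3:54360857-54361106, + strand: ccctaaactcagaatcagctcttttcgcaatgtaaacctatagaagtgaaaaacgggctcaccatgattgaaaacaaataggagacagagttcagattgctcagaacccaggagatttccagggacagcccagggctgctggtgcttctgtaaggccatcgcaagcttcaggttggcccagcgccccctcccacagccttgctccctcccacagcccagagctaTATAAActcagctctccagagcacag
Tnc, chr4:64047016-64047265, - strand: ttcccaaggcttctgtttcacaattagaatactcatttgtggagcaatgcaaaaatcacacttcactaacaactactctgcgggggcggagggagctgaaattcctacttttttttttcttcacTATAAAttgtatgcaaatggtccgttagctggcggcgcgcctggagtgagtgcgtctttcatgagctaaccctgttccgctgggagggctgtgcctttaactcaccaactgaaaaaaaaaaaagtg
Thbs2, chr17:14694263-14694512, - strand: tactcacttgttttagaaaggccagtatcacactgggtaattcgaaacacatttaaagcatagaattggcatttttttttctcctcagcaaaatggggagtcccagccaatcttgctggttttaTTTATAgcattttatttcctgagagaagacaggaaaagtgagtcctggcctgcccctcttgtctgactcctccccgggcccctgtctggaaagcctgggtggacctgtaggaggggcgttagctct

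These windows hold 4, 8 and 3 CpG dinucleotides and have 52%, 44.8% and 46.8% GC, against medians of 6 and 52.4% over all promoters.

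At the Control stage 9 of the 10 genes, all but Vim, were lower in every Type D line than in every Type V line. Among all tested genes 19.5% were arranged this way. The same 9 were separated in Control + CsA, against a background of 20%. In Restored and in Restored + CsA 7 genes were separated, against 16.1% and 15.5%, since the ranges of Fn1 and Tnc then met between types. Postn counts as separated in Restored by 0.0463 against 0 TPM, and Thbs2 in Control by 0.211 against 0.037 TPM. The genes were chosen by such a difference, and all conditions come from the same lines. The counts in every condition therefore restate the choice and are no test of it. Without Vim, the members took 0.327 to 0.475% of all TPM in Type V Control and 0.0525 to 0.0966% in Type D Control. In bulk RNA, fewer expressing cells and less RNA per cell cannot be told apart.

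**Figure D1:**
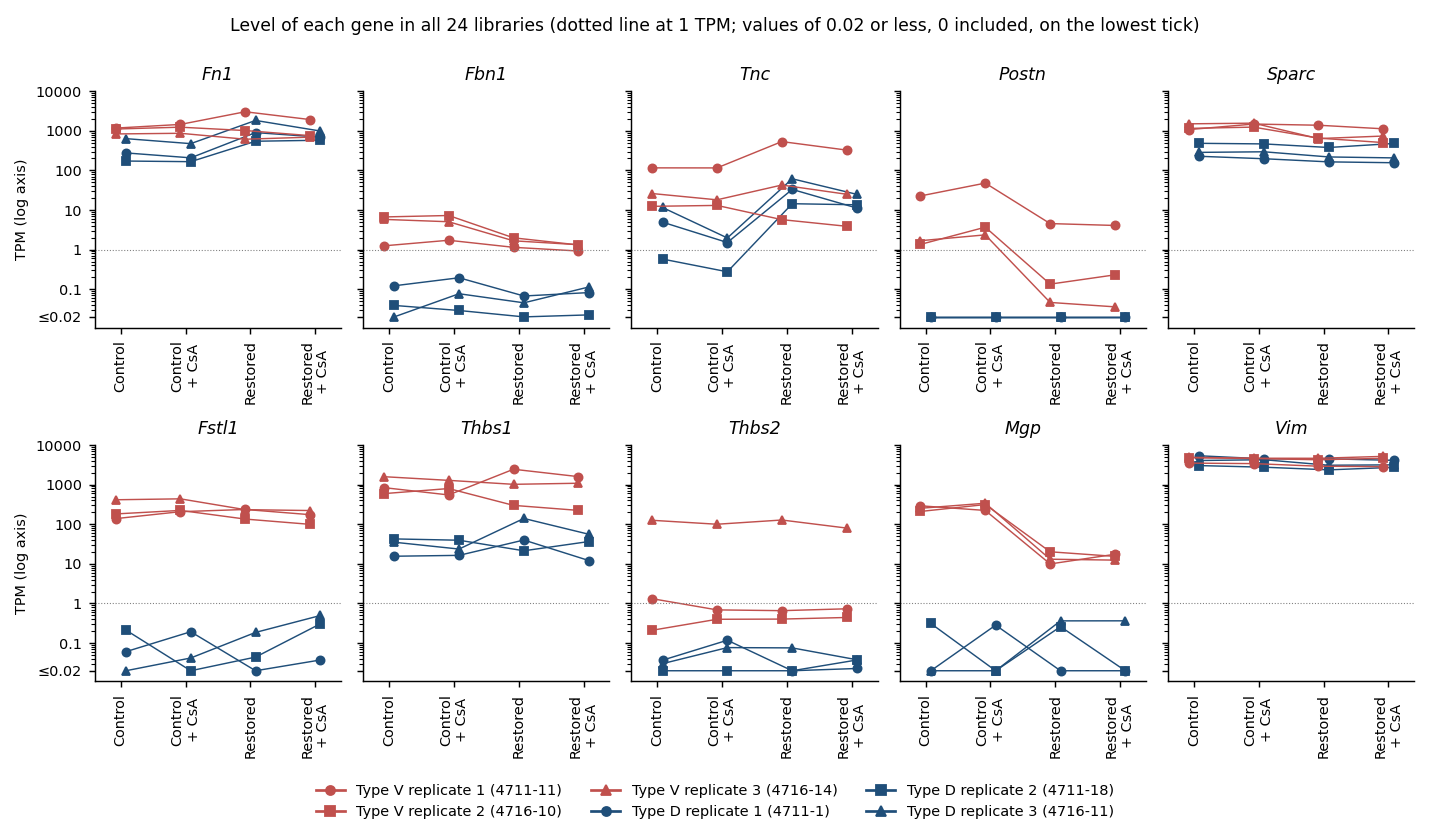
TPM of each gene (log axis) in the 4 conditions, with a line for each of the 3 Type V (red) and 3 Type D (blue) cell lines; points on the lowest tick are at 0.02 TPM or less, 0 included. Vim overlaps between types throughout and is lower in Restored than in Control in each line. Mgp, Postn and Fbn1 are lower in Restored in each Type V line, and Sparc in each Type D line. Fn1 and Tnc are higher in Restored in each Type D line.

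A set of 5 genes had no room to fall in Type D. Fbn1, Postn, Fstl1, Thbs2 and Mgp lay below 1 TPM in all 3 Type D Control libraries, and in all other Type D libraries as well. For these 5 genes a difference in response between types can come only from Type V or from a rise in Type D.

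Fn1 (chr1:71585520-71653200 on GRCm38, - strand) encodes the fibronectin that cells bind through integrins. In Type V Control it measured 1169, 1108 and 832 TPM in replicates 1, 2 and 3. In Type D Control it measured 276, 172 and 634 TPM. The groups did not overlap, and the mean was 2.87-fold higher in Type V. After restoration the Type D lines measured 900, 545 and 1827 TPM, so each was higher than before, by 3.26-, 3.16- and 2.88-fold. With CsA in both states they went from 208, 166 and 474 to 691, 578 and 986 TPM, again higher in all 3 lines. The Type V lines did not move together: replicate 1 went to 3025 TPM, while replicates 2 and 3 were at 1015 and 613 TPM.

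The change of Fn1 in Type D was 1.63 on the log2 scale (SE 0.58) with a limma adjusted p of 0.077, so it was not called at the thresholds of 0.05 and 1 log2. When each cell line was entered as a block, which pairs the libraries of a line, the same change was called (SE 0.28, limma adjusted p 0.00021). Under CsA it was 1.53 (adjusted p 0.12, and 0.00043 with the block, limma). In Type V the change was 0.27 (SE 0.58, limma adjusted p 0.88), and it was -0.28 without replicate 1. Ordered by mean log2 level, the 8 groups of Fn1 had 1 gap larger than the SD of the neighbouring groups, that between Type D Restored + CsA and Type D Control.

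Tnc (chr4:63959785-64047015, - strand) encodes tenascin-C, a large glycoprotein of wound and tumor matrix. Type D Control libraries held 4.93, 0.577 and 11.6 TPM and Type V Control libraries 116, 12.4 and 26.1 TPM. Thus the types did not overlap, but the highest Type D line and the lowest Type V line were close. After restoration Type D lines held 33.1, 14.4 and 61.4 TPM, with all 3 above their own Control. In the presence of CsA they went from 1.51, 0.275 and 1.97 to 11.2, 13.5 and 24.8 TPM. In Type V, replicate 1 went from 116 to 534 TPM, replicate 3 from 26.1 to 42.7 TPM, and replicate 2 from 12.4 to 5.71 TPM, so the lines diverged.

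For Tnc in Type D the log2 change was 2.71 (SE 1.43, limma adjusted p 0.26), and 2.97 under CsA (adjusted p 0.23). Both changes were called with the cell line block (SE 0.55, limma adjusted p 0.00087 and 0.0005). The Type D lines lay far apart before restoration, from 0.577 to 11.6 TPM, and the block takes out such differences between lines. In Type V the change was 0.63 (limma adjusted p 0.89; 0.38 with the block). Over the 12 Type D libraries, with each line centred on its own mean, Fn1 and Tnc correlated with r of 0.963. The libraries share lines and treatments, and the value is a description.

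Without Type V replicate 1 in the fit, Fn1 and Tnc were also called higher in Type D after restoration (limma adjusted p 0.041 and 0.043), since the estimate of spread is shared by all groups. Under CsA Tnc was called in that fit (adjusted p 0.035, limma), and also when the compared groups were fitted alone (0.022).

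Fbn1 (chr2:125300594-125507993, - strand), the fibrillin of microfibrils that hold latent TGF-beta, was low throughout. In Type V Control it measured 1.24, 6.68 and 5.8 TPM, and in Restored 1.14, 1.98 and 1.67 TPM. Replicates 2 and 3 were 3.37- and 3.47-fold lower after restoration, and replicate 1 differed by 1.09-fold. Under CsA the lines went from 1.72, 7.26 and 5.05 to 0.922, 1.31 and 1.33 TPM. In Type D no library exceeded 0.195 TPM.

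The log2 change of Fbn1 in Type V was -0.93 (SE 0.38, limma adjusted p 0.15), and -1.24 under CsA (adjusted p 0.054, limma). Blocked by cell line, the adjusted p was 0.0053 and 0.00075, and only the change under CsA also passed the 1 log2 threshold. Fbn1 was called in both comparisons without Type V replicate 1 (-1.36 and -1.61) and after quantile normalization (-1.16 and -1.45).

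Postn (chr3:54361109-54391037, + strand) encodes periostin, a matricellular partner of tenascin-C and fibronectin. It was listed at 0 in all 12 Type D libraries. Type V Control libraries held 22.7, 1.35 and 1.68 TPM, and Restored libraries 4.54, 0.134 and 0.0463 TPM. With CsA the values were 47.8, 3.68 and 2.36 TPM before and 4.07, 0.23 and 0.0359 TPM after restoration. Every Type V line was lower after restoration, and replicate 1 stood above the others in each condition.

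The log2 change of Postn in Type V was -1.501 (SE 0.91, limma adjusted p 0.37), and -2.30 under CsA (adjusted p 0.15). With the cell line block both were called, with adjusted p of 0.00014 and 3.1e-06 (limma, SE 0.24). Both were also called without Type V replicate 1 (-1.20 and -1.81). On the log2(TPM + 1) scale the changes of replicates 2 and 3 are understated, as these lines ended below 1 TPM.

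Sparc (chr11:55394500-55423183, - strand) encodes a collagen-binding, calcium-binding matricellular protein. In Type V Control it measured 1072, 1150 and 1499 TPM and in Type D Control 227, 483 and 285 TPM, a 3.74-fold higher mean in Type V. After restoration Type V libraries measured 1383, 653 and 636 TPM and Type D libraries 164, 379 and 219 TPM. The types stayed apart, and replicates 2 and 3 of Type V were lower while replicate 1 was higher. The log2 change in Type V was -0.56 (limma adjusted p 0.53), and -0.92 under CsA (adjusted p 0.25; 0.0039 with the block, short of the 1 log2 threshold). In Type D it was -0.40 (adjusted p 0.65, limma), lower in all 3 lines by 1.27- to 1.38-fold.

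Fstl1 (chr16:37776873-37836514, + strand), a secreted glycoprotein with a follistatin domain, measured 139, 182 and 415 TPM in Type V Control. In Type D Control it was at 0.0606, 0.213 and 0 TPM, and no Type D library exceeded 0.497 TPM. Type D minus Type V was -7.66 on the log2(TPM + 1) scale. Restored Type V libraries held 236, 135 and 234 TPM, with replicate 1 higher and the others lower than in Control. The log2 change was -0.16 (limma adjusted p 0.89), and -0.80 under CsA (adjusted p 0.23; 0.014 with the block, short of 1 log2).

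Thbs1 (chr2:118111876-118127133, + strand) encodes thrombospondin 1, which binds the receptors Cd47 and Cd36 and can activate latent TGF-beta. Type V Control libraries held 842, 594 and 1590 TPM, and Type D Control libraries 15.6, 42.7 and 35.2 TPM. The mean was 32.4-fold higher in Type V. After restoration Type V lines were at 2450, 299.9 and 1020 TPM, and Type D lines at 40, 21.4 and 140 TPM. In each type 1 line went opposite to another: replicate 1 was higher and replicate 2 lower. The log2 change was -0.03 in Type V (SE 0.82) and 0.77 in Type D (SE 0.82), with limma adjusted p of 0.998 and 0.65. The interval of the Type V change, 1.72 to each side, includes changes of 1 log2 in either direction.

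Thbs2 (chr17:14665500-14694235, - strand), the paralog of Thbs1, was abundant in a single line. Type V replicate 3 held 126 TPM in Control and 128 TPM in Restored, while replicate 1 held 1.32 and 0.658 TPM and replicate 2 held 0.211 and 0.403 TPM. No Type D library exceeded 0.118 TPM. The type difference of -2.79 log2 in Control was -0.71 without Type V replicate 3. The log2 change with restoration in Type V was -0.08 (SE 1.89; 0.16 with the block).

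Mgp (chr6:136872435-136875823, - strand) was the 1 member that fell in Type V after restoration at the thresholds used, a change already known when the genes were chosen. Type V Control libraries held 292, 210 and 253 TPM, and Restored libraries 9.95, 20.2 and 13.1 TPM, which is 29.4-, 10.4- and 19.3-fold lower. With CsA the lines went from 223, 315 and 340 to 17.5, 15.4 and 12.4 TPM, or 12.8-, 20.4- and 27.3-fold lower. Groups did not overlap in either comparison. In Type D, 7 of 12 libraries were listed at 0 and none exceeded 0.364 TPM. Restored Type V lines thus still held more Mgp than any Type D line. Ordered by mean log2 level, the gaps of Mgp between Type V Control and Type V Restored + CsA and between Type V Restored and Type D Restored exceeded the SD of the neighbouring groups. For Fbn1, Sparc, Fstl1 and Thbs1 such a gap lay only between the lowest Type V group and the highest Type D group, for Tnc only between Type D Restored + CsA and Type D Control, and for Postn, Thbs2 and Vim there was none.

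The log2 change of Mgp in Type V was -4.08 (SE 0.25, limma adjusted p 3.5e-09), and -4.18 under CsA (adjusted p 3.1e-09). Leaving out each line in turn gave -4.46 to -3.75 and -4.46 to -3.93. Of all tested genes 1.9% were called lower with restoration in Type V and 1.77% under CsA, and 1 of 10 members was called in each. As the fall of Mgp was known when the genes were chosen, its p-values and its part in these counts are a description. With the cell line block the shares were 2.93% and 2.94%, and 2 members (Mgp and Postn) and 3 members (with Fbn1) were called lower. No member was called higher in Type V, where 3.39% of genes were, or 2.84% under CsA.

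In Type D no member was called in either direction without the block, at the background of 4.49% higher and 2.44% lower, or 3.53% and 1.88% under CsA. A single member, Fn1, had an unadjusted p under 0.05 in each. With the block Fn1 and Tnc were called higher in both comparisons, against 7.05% and 5.91% of all genes. The median change of the 10 members in Type V was -0.17 against 0.05 over all tested genes, and under CsA -0.50 against 0.04. Without Type V replicate 1 the member medians were -0.72 and -1.05. The genes were chosen chiefly by Control levels that were higher in Type V, the baseline of the change without CsA. That choice favours a lower median, so the median is a description. In Type D 5 members lay at the floor, so a median over the members has no meaning there.

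**Figure D2:**
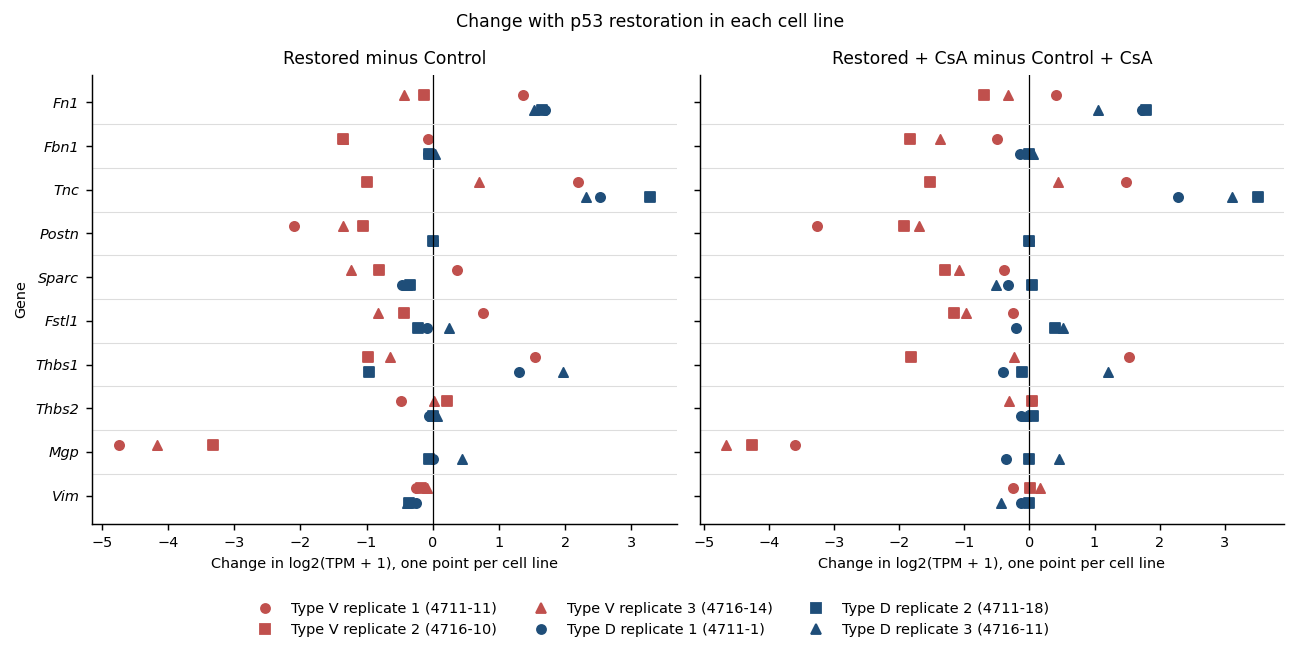
Change of each gene in log2(TPM + 1) with restoration, without CsA (left) and with CsA (right); each point is 1 cell line, Type V in red and Type D in blue. Mgp, Postn and Fbn1 lie below 0 in all 3 Type V lines, and Fn1 and Tnc above 0 in all 3 Type D lines. In the left panel Vim lies below 0 in every line and Sparc in all 3 Type D lines. In the right panel Sparc and Fstl1 lie below 0 in all 3 Type V lines and Vim in all 3 Type D lines. Type V replicate 1 (circle) stands apart from replicates 2 and 3 for Fn1, Sparc, Fstl1 and Thbs1 in the left panel.

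**Figure D3:**
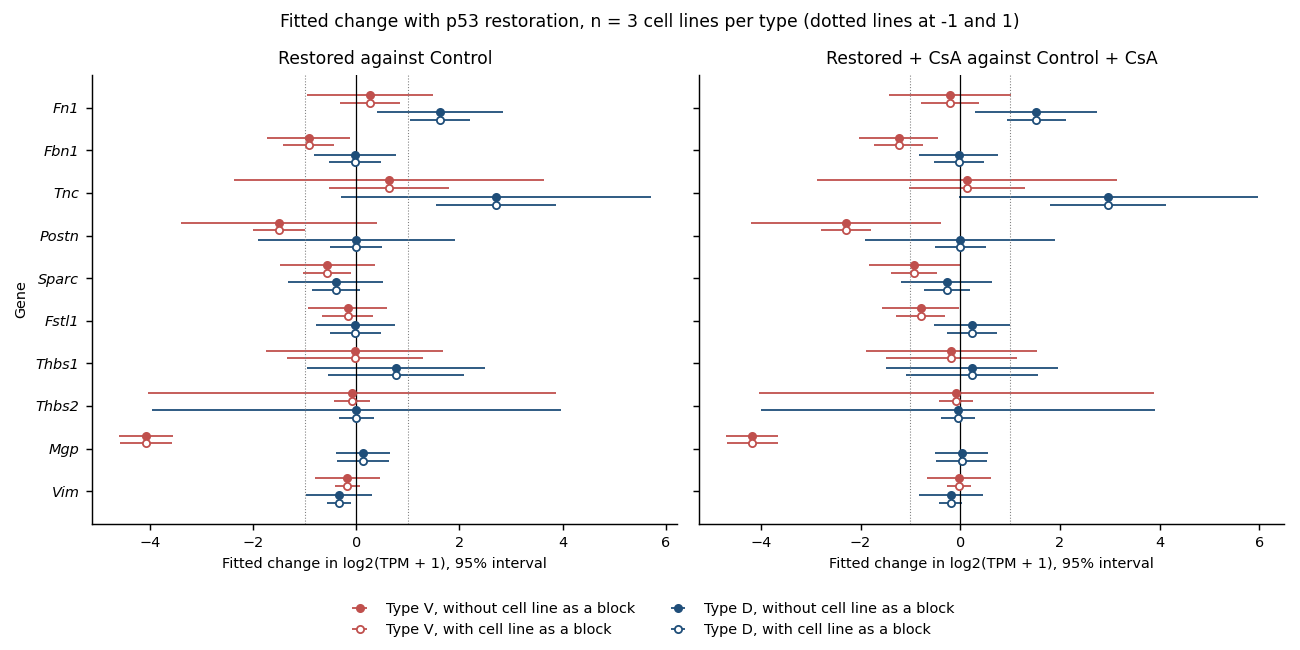
Fitted log2 change of each gene with restoration in Type V (red) and Type D (blue), with 95% intervals from limma, n = 3 lines per type; filled points are without and open points with the cell line as a block. The Mgp interval in Type V lies below -1 in both fits, while intervals of Tnc, Postn and Thbs2 are much narrower with the block.

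Next, Type D and Type V were compared in how they responded to restoration. For the 5 genes at the floor in Type D this comparison tests nothing, since their Type D change was held near 0 and the difference, Type D minus Type V, only restates the Type V change. For Mgp it was 4.21 log2 without CsA and 4.21 under it, and for Postn it was 1.501 and 2.30, the Type V change with its sign turned. Of the others (Fn1, Tnc, Sparc, Thbs1 and Vim) 0 were called by limma, where 0.0213% and, under CsA, 0.00709% of all genes were called higher. At an unadjusted p under 0.05 there were 0 of them without CsA, and Fn1 under it (1.73 log2, limma p 0.0498). Blocking on cell line gave no call among them without CsA, against 1.13% of genes, where Fn1 had a difference of 1.36 (limma adjusted p 0.054) and Tnc of 2.08 (0.12). Under CsA the block gave calls for Fn1 (adjusted p 0.019) and Tnc (2.83, 0.047), against 0.978% of genes (limma). Comparisons with and without CsA within a type share no library, whereas each difference shares its Control libraries with the type contrast that guided the choice of genes, or, under CsA, uses other libraries of the same lines.

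CsA alone moved no member past the thresholds. Among all genes none (0%) was called in Type V or in Type D for CsA alone, and in Type V for CsA added to restored cells, and 0.0142% were called in Type D for the last. At an unadjusted p under 0.05 there were 54, 114, 100 and 229 genes in these limma tests of Type V alone, Type D alone, restored Type V and restored Type D, and 0 members among them. That fit does not pair the libraries of a line. With the cell line block there were 609, 953, 633 and 1771 genes, among them Postn for CsA alone in Type V (0.79 log2, higher in 3 of 3 lines, limma p 0.0047, adjusted p 0.73) and Tnc for CsA alone in Type D (-1.21 log2, lower in 3 of 3 lines, limma p 0.042, adjusted p 0.71). Member changes ran from -1.21 (Tnc) to 0.06 for CsA alone in Type D and from -0.19 to 0.79 (Postn) in Type V. On restored cells they ran from -0.95 to 0.24 in Type D and from -0.64 to 0.11 in Type V, with Tnc lowest in each. Tnc was lower with CsA in all 3 Type D lines, both before restoration and after it. The intervals of Tnc were wider than 1 log2 to each side (SE 1.43, or 0.55 with the block), so changes of that size are within them.

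Vim (chr2:13573927-13582826, + strand) lay at 2365 to 5360 TPM in Type D and at 2848 to 5178 TPM in Type V, and ranked between 5 and 24 among all genes of a library. The Control values were 3503, 4789 and 4907 TPM in Type V and 5360, 3031 and 4073 TPM in Type D, so the types overlapped. The log2 change with restoration was -0.17 in Type V and -0.34 in Type D. The latter had a limma adjusted p of 0.57, or 0.021 with the block, short of 1 log2.

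The genes around the members were read as lists, beside the shares of all genes given above, which were 3.39% higher and 1.9% lower in Type V and 4.49% and 2.44% in Type D. With the block these shares were 5.74% and 2.93% in Type V and 7.05% and 4.16% in Type D. Of 11 receptors that bind them, the integrin subunits, Cd47, Cd36 and Sdc4, 0 were called with restoration in Type V or Type D in either fit, blocked or not (limma). Itgb1, the integrin beta chain of fibronectin receptors, measured 851 TPM in Type V Control and 536 TPM in Type D Control on average. Its changes were 0.20 and 0.46 log2 (limma adjusted p 0.86 and 0.52). Of 7 mesenchymal transcription factors 0 were called in either type; their summed level was 224 to 361 TPM in Type V Control and 26.2 to 76.4 TPM in Type D Control. Prrx1, a factor of mesenchymal lineages, lay at 2.63 to 156 TPM in Type V and at no more than 0.497 TPM in Type D. Snai2 and Zeb1 were also apart, at up to 38.6 and 28.5 TPM in Type D. Type V held at least 58.3 and 32 TPM of them. The ranges of Snai1, Twist1, Twist2 and Zeb2 overlapped between types. Twist1, for example, lay at 0 to 36.1 TPM in Type V and at 2.73 to 18.3 TPM in Type D.

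Among 48 tested matrix glycoproteins of 59 listed, 1 rose in Type V and 0 in Type D, and none fell. With the block 5 rose and 2 fell in Type V, and 2 rose and 2 fell in Type D. The gene that rose without the block was Ecm1, an extracellular matrix protein of skin and bone, at 2.58 log2 in Type V (SE 0.68, limma adjusted p 0.019). Their medians were 0.08 in Type V and -0.01 in Type D, against 0.05 and 0.07 over all tested genes. Of 9 tested proteoglycans 1 rose in each type and none fell: Podn (podocan), by 3.34 log2 in Type V and 2.01 in Type D (limma adjusted p 0.00013 and 0.0086), from below 1 TPM to 20.7 and 3.72 TPM. With the block 3 rose and 2 fell in Type V, and 2 rose and 1 fell in Type D.

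Among 17 crosslinking and assembly genes 2 rose in each type and none fell. Plod2, a lysyl hydroxylase that prepares collagen for crosslinks, rose by 2.48 log2 in Type D lines and by 1.34 in Type V lines (limma adjusted p 0.00023 and 0.034). Vkorc1, which recycles the vitamin K needed to carboxylate matrix Gla protein, rose by 1.54 log2 in Type V and 1.26 in Type D (adjusted p 4.3e-05 and 0.00022, limma). Its level went from 89.6 ± 6.57 to 264 ± 40.7 TPM in Type V (SD, n = 3), the lines in which Mgp fell. With the block 2 rose and 4 fell in Type V and 3 rose and 2 fell in Type D. Of 9 tested intermediate filament genes 1 rose in each type, Synm (synemin), and none fell. Synm rose by 2.97 log2 in Type V and 3.67 in Type D (limma adjusted p 0.00026 and 1.8e-05). With the block 2 rose and 1 fell in Type V, and 1 rose and none fell in Type D. The medians of the 9 genes were -0.31 in Type V and -0.49 in Type D, against 0.05 and 0.07 over all tested genes.

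Markers of other cell types were read beside these genes. Of 11 fibroblast and mural markers the summed level was 355 to 508 TPM in Type V Control and 96.7 to 635 TPM in Restored, and 3.73 to 9.79 TPM in Type D. Thy1 was listed at 0 in all Type V libraries, and Pdgfra, Lum and Fap did not exceed 3.37 TPM there. In Type V Pdgfrb lay at 2.02 to 143 TPM, Dcn at 3.52 to 71.9 TPM, Col1a1 at 0.698 to 401 TPM and Acta2 at 1.08 to 361 TPM. In Type D Pdgfrb and Dcn did not exceed 0.239 TPM, Col1a1 1.55 TPM and Acta2 3.10 TPM. Of the 7 tested, Col1a2, a collagen I chain, fell in Type V by 2.86 log2 (limma adjusted p 0.0059), from 89.96 to 8.29 TPM on average; the block added 3 more that fell. The 7 endothelial markers summed to at most 1.40 TPM and none was tested. Ptprc, the pan-leukocyte marker, did not exceed 0.154 TPM, while Cd68, the 1 immune gene of 2 tested that rose, went up by 1.28 log2 in Type V and 1.95 in Type D (limma adjusted p 0.0077 and 0.00013). Of 6 epithelial markers tested 0 were called; with the block 1 rose in Type D. Of 4 tested neuroendocrine markers Uchl1 fell in Type V, by 2.08 log2 (adjusted p 0.0062, limma). The part of fibroblast-like markers in the member values was not tested.

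The genes most like each member over all 24 libraries were found by Pearson's r of log2(TPM + 1). For Mgp they were Col1a2 (r 0.967) and Cldn1 (0.961), for Postn Fbn2 (0.965) and Pappa2 (0.949), and for Fbn1 Iglon5 (0.984) and Col1a2 (0.973). For Fn1 they were Adgrg6 (0.912) and Myo10 (0.899), and for Tnc Itgb1 (0.961) and Edc4 (0.934). Fstl1 was followed most closely by Cxcl12 and Dclk1 (0.993 and 0.992), Sparc by Sem1 and Cd99l2 (0.963 and 0.952), Thbs1 by Podnl1 and Ikzf2 (0.972 and 0.969), Thbs2 by Crmp1 and Foxl1 (0.997 and 0.992), and Vim by Tcf7 and Serinc2 (0.876 and 0.875). The libraries share lines and treatments, and these values are descriptions.

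After each line was centred on its own mean, which leaves the treatments, the nearest genes of Mgp were Dlx5 (0.981) and Capn6 (0.973), and Capn6 was also nearest to Postn (0.949), followed by Mme (0.942). Dcbld2 was nearest to Fn1 (0.942) and second for Tnc (0.952), after Itgb1 (0.956). Within Type V, Postn and Mgp correlated with r of 0.916 and Sparc and Fstl1 with 0.952, each over 12 centred libraries.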

How the data were processed

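The authors deposited 1 table of TPM values for 24 libraries of 6 cell lines, used as deposited. Libraries were stranded, made from mRNA and read single-end. The methods name kallisto or HISAT2, and the labels name HISAT2; which of them, and which build, lies behind the table is not clear, as mm10 and GRCm39 are written for the same step. Each library sums to the same total, so TPM shows shares of RNA and not amounts.

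The 10 members, the other gene lists and the rule for naming genes (all members; in each other list the largest called changes that go the same way in 3 lines; the nearest genes by correlation) were chosen with earlier results of these data known. Values were analysed as log2(TPM + 1), which understates changes of low genes. Genes at 1 TPM or more in at least 3 libraries, 14104 of 25239, entered the tests (limma 3.58.1, R 4.3.3), with 1 mean per group and eBayes with trend. Called means a Benjamini-Hochberg adjusted p under 0.05, over all tested genes within a comparison, and a change of at least 1 log2. Tests were two-sided. Intervals cover 95%.

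The labels pair the 4 libraries of a line. After group means were removed, libraries of the same line correlated with r of 0.599 to 0.929 (36 pairs), and those of different lines of a type with -0.675 to 0.0438 (72 pairs). The test had no block, and cell line as a block was an alternative. Others were no filter, a minimum of 5 TPM, a pseudocount of 0.1, quantile normalization, median-ratio scaling (factors 0.887 to 1.12), the compared groups alone, and each line left out. The script was tested on simulated data. Positions are from GENCODE on GRCm38, promoters from RefSeq. Figures used matplotlib 3.10.9 in Python 3.11.15. A listed gene is not reported here.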

Additional observations from a re-analysis of the deposited data

Results flagged for a closer look

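Fn1 had small differences of opposite sign in the types when CsA was given without restoration. The gene was picked by screening the members over the restoration and CsA comparisons. It was higher with CsA in all 3 Type V lines, by 0.06 to 0.31 log2, and lower in all 3 Type D lines, by -0.42 to -0.05 log2. The Type D mean minus the Type V mean was -0.47 log2, and this difference was not tested. Neither change was called, and with the cell line block the limma p was 0.54 in Type V and 0.30 in Type D. The share of all genes with such a pattern was not counted.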

How the results depend on the processing

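The separation of 9 members by type in Control, by which the genes were chiefly chosen, was the same under each scaling. Leaving out a line cannot undo it, so the same count without each line tests nothing. Counts of called members in the 4 CsA comparisons stayed at 0 in every alternative.

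With the cell line block the called members went from 1 to 2 for restoration in Type V, from 1 to 3 under CsA, from 0 to 2 in Type D without and with CsA, and for the difference between types from 1 to 2, or 5 under CsA. Both of the former and 3 of the latter are members at the floor in Type D, where the difference only restates the Type V change. A pseudocount of 0.1 took both counts for the difference between types to 0; for Mgp the values were then 4.84 and 4.35. Quantile normalization gave 2 in Type V without and with CsA, and fitting the compared groups alone gave 1 in Type D under CsA. With each line left out in turn the counts were 1 to 3 in Type V without and with CsA, 0 to 2 in Type D, 0 to 1 in Type D under CsA, and 1 to 2 for the difference under CsA; the upper ends came without Type V replicate 1.

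No called change turned its direction. Sign changes were confined to members that were not called. They were Thbs2 in Type D (-0.0077 with a pseudocount of 0.1, -0.011 with quantile normalization, -0.00025 with median-ratio scaling) and in the difference under CsA (-0.20 with a pseudocount of 0.1), and under quantile normalization Thbs1 in Type V (0.15), Mgp in Type D under CsA (-0.013) and Vim in Type D under CsA (0.026) and in the difference under CsA (0.089). The cause was not tested.

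Ranges without each line in turn that spanned 0 were, for restoration in Type V, -0.28 to 0.62 for Fn1, -0.15 to 1.44 for Tnc, -0.63 to 0.17 for Fstl1, -0.81 to 0.45 for Thbs1 and -0.23 to 0.12 for Thbs2. Under CsA in Type V they were -0.52 to 0.041 for Fn1, -0.54 to 0.97 for Tnc, -1.03 to 0.65 for Thbs1, -0.14 to 0.041 for Thbs2 and -0.12 to 0.085 for Vim. In Type D they were -0.15 to 0.080 for Fstl1, -0.026 to 0.031 for Thbs2 and -0.029 to 0.22 for Mgp, and under CsA -0.076 to 0.020 for Fbn1, -0.26 to 0.55 for Thbs1 and -0.18 to 0.22 for Mgp. For the difference between types they were -0.18 to 0.63 for Sparc, -0.19 to 0.61 for Fstl1 and -0.12 to 0.23 for Thbs2, and under CsA -0.41 to 1.27 for Thbs1 and -0.084 to 0.097 for Thbs2.

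Depth is unknown in a TPM table, and 5 members at the floor in Type D limit what a difference between types can show.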
